A study of Mus musculus with 18 samples.

Results

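Skin flaps of mice that lay over the D150L150 spacer were compared with Control flaps, by the 3 D150L150 and 3 Control columns of an 18-column FPKM table, 6 of 18 libraries in all. In both groups a flap was raised in mouse skin. Control flaps got no treatment after that, whereas a mesh-like spacer, made by near-field electrostatic printing, was put beneath each D150L150 flap, and skin was taken at day 7. The spacers of the series differ in diameter and spacing, and its stated interest is how topology bears on cell differentiation in the tissue. The labels give no unit or meaning for D and L and no strain, age or sex, and they do not say whether libraries came from separate animals. P-values thus measure the spread between libraries, which may be technical.

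A mouse skin flap holds epidermis, dermis, fat and, unlike most human skin, a sheet of striated muscle called the panniculus carnosus, so that genes of contraction are part of a skin library. After wounding, keratinocytes at the edge switch on a set of stress keratins and envelope precursors, and the layers above the basal layer later cornify, with kallikrein proteases cutting the junctions by which dead cells are shed. Muscle that is cut or denervated turns on myogenic regulators and fetal forms of myosin and of the acetylcholine receptor as it regenerates.

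Values are FPKM, fragments scaled by gene length and library size, and differences are D150L150 minus Control on the log2(FPKM + 1) scale, ± the standard error of the limma fit. That scale understates changes of low genes. Where 3 values are set against 3 others, the first are FPKM in Control 1, 2 and 3 and the second in D150L150 1, 2 and 3. The 6 libraries held 30971888 to 33160818 recovered fragments, and 28422344 to 35327357 over all 18. Keratins and collagens of skin were detected in each of the 6 libraries (Krt5 at 429, 1458 and 1062 FPKM in Control 1, 2 and 3 and 1841, 1760.1 and 2516 in D150L150 1, 2 and 3, Col1a1 at 919.7, 2347 and 2693 against 2152, 1902 and 1485). Control 1 stood apart: its log2 values correlated across genes at 0.922 and 0.940 with Control 2 and 3, which correlated with each other at 0.978, and the D150L150 libraries correlated with each other at 0.948 to 0.979. The groups were not fully apart in this measure, since Control 3 correlated at 0.958, 0.972 and 0.934 with D150L150 1, 2 and 3. Control 1 was the lowest Control library in 212 of the 265 genes called higher and the highest in 44 of the 52 called lower. Values without it are therefore given beside the main results.

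Genes of activated and cornifying epidermis, such as Klk6 and Krt6a, rose in D150L150 relative to Control. Most mitochondrially encoded genes fell, as did 5 of 129 skeletal muscle genes tested (3.88%). Of all genes tested 0.398% were called lower and 2.42% in either direction. Most other muscle genes were lower but not called. A gene was tested where 3 or more of the 18 libraries had an FPKM of 1 or higher. Of the 13078 such genes, limma called 317 at an adjusted p under 0.05 (2.42% of those tested), 265 of them higher (2.03%) and 52 lower (0.398%). The median difference of the called genes was 1.62 for the higher and -0.92 for the lower. In each of the 317 genes the 3 D150L150 values lay outside the 3 Control values, but so they did in 1868 genes that were higher (14.3% of those tested) and 1581 that were lower (12.1%), whether called or not. All 317 kept their direction when Control 1 was left out, with the median size of the difference at 1.29 in place of 1.54. Only Klk6 and the predicted gene Gm49428 were still called then, and leaving out D150L150 1 left 0 calls by limma (1933 genes at an unadjusted p under 0.05). Counts were 110 without Control 2, 274 without Control 3, 148 without D150L150 2 and 30 without D150L150 3. With only these 6 libraries in the fit 47 genes were called, and with each library's fast muscle level as a covariate 0 were (1421 at an unadjusted p under 0.05, smallest adjusted p 0.0749), that level being itself lower in every D150L150 library than in any Control library.

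**Figure D1:**
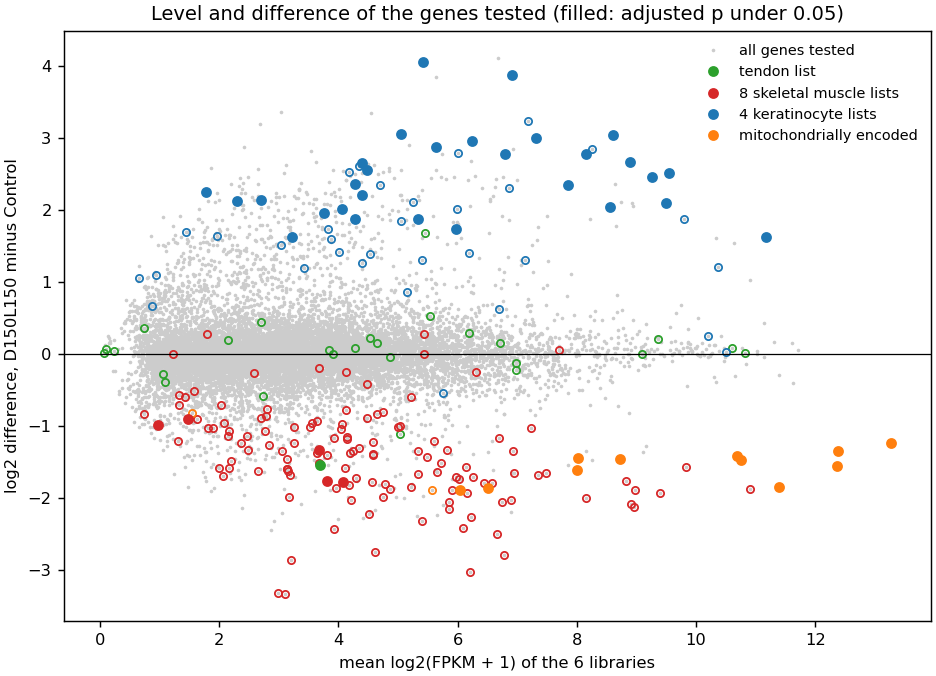
Each point is 1 of the 13078 genes tested, with the mean log2(FPKM + 1) of the 6 libraries on the x axis and the log2 difference, D150L150 minus Control, on the y axis. Filled coloured points are called list members, open ones are members that were not called. Of the 129 muscle members 125 lie below 0 and 5 are called, nearly all keratinocyte members lie above 0, and 11 of the 13 mitochondrial genes are called lower.

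The 8 lists of skeletal muscle held 129 tested genes, of which 125 were lower in D150L150. Limma called 5 of them, all lower (3.88%). Of all genes tested it called 0.398% lower and 2.42% in either direction. Their median difference was -1.40, beside 0.002 over all genes tested. In 92 of the 129 (71.3%) the 3 D150L150 values lay below the 3 Control values, beside 12.1% of all genes tested. The same shares over all genes stand beside the counts of each muscle list below. Genes of the 8 lists took 3.33%, 6.53% and 3.21% of the fragments of Control 1, 2 and 3 and 1.15%, 1.8% and 1.38% of those of D150L150 1, 2 and 3. Without Control 1 the median was -1.57, and with the fast muscle level as a covariate, which is made from 14 of these genes, it was -0.23. In bulk tissue, fewer muscle cells and less RNA per muscle cell cannot be told apart.

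**Figure D2:**
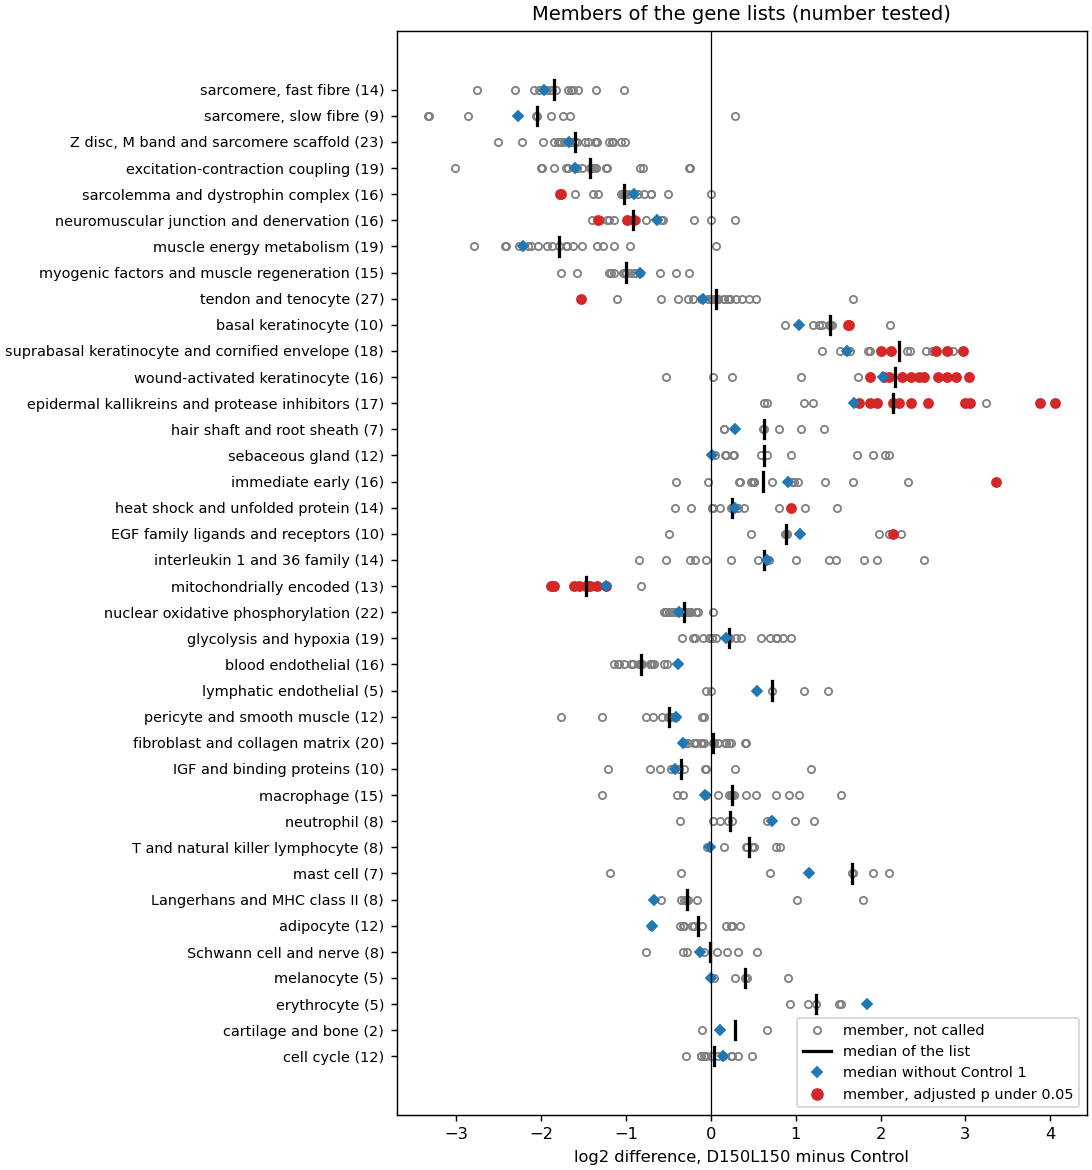
Log2 differences, D150L150 minus Control, of the members of the 38 gene lists, with the number of members tested after each name. Filled points are called members, black bars are list medians, and diamonds are medians without Control 1. All 8 muscle lists have medians between -2.05 and -0.91, the tendon list has its median at 0.05 with Scx called at -1.54, and the lists of activated and cornifying keratinocytes have medians above 2.

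In the contractile apparatus of fast fibres, the type that makes up most of the panniculus carnosus, all 14 genes tested were lower and none was called. Their median difference was -1.85, and 11 had groups that did not overlap. Acta1, the actin of skeletal muscle thin filaments, stood at 3104, 5449.6 and 2923 FPKM in Control 1, 2 and 3 and at 731, 1374 and 993 in D150L150 1, 2 and 3. Each D150L150 value was below each Control value, and the difference was -1.88 ± 0.61 (limma adjusted p = 0.115). Neb, the giant protein that spans the thin filament, had 33.4, 44 and 24.9 FPKM in Control and 6.28, 11.2 and 9.11 in D150L150, a difference of -1.83 ± 0.57 (adjusted p = 0.102). The fast troponins were close to this: Tnnt3 was at 1055, 2178 and 984 against 225, 529 and 339, and Tnni2 at 822, 1716 and 687 against 157, 372 and 215. Myh4, the myosin heavy chain of the fastest fibres, overlapped between groups, at 109.9, 594 and 209.5 in Control and 22.8, 151 and 55.1 in D150L150, with D150L150 2 above Control 1.

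Slow fibre genes split the Control libraries as well as the groups. Of 9 tested, 8 were lower and 5 did not overlap, with a median of -2.05. Myh7, the slow myosin heavy chain, read 1.13, 92 and 75.9 FPKM in Control and 0.164, 11.5 and 1.73 in D150L150. Control 1 was near the D150L150 values and far under the other Control libraries. Myl2, a light chain of the same myosin, had 2.51, 98.9 and 57.5 against 0.0743, 4.66 and 2.3. Differences of these genes were -2.86 ± 2.25 and -3.33 ± 2.00 (limma adjusted p = 0.504 and 0.367). Tnnt1 and Tnnc1, slow troponins, did not show that split, with 82, 179 and 109 against 31.2, 18.6 and 34.8 FPKM and 203, 298 and 170.0 against 69.1, 36.1 and 55. Tpm3, a tropomyosin that other cells also make, was the exception with a positive difference of 0.28 ± 0.36 (-0.11 without Control 1).

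The 23 genes of the Z disc, M band and sarcomere scaffold were all lower, with a median of -1.60, and 18 did not overlap. Des, the intermediate filament that ties Z discs together, had 1292, 686 and 656 FPKM in Control and 224, 336 and 194 in D150L150, with a difference of -1.77 ± 0.47 and an adjusted p of 0.0603 in limma. Lmod2, which lengthens thin filaments, had 35.1, 57.8 and 38.7 against 8.54, 14.8 and 13.1, and Pdlim3, a Z disc adaptor, 272, 246 and 153 against 48.2, 81 and 81.3. Both missed the threshold, at adjusted p-values of 0.0778 and 0.0704. Tcap, which caps titin at the Z disc, ran from 91.8, 531 and 283 in Control to 14, 90.4 and 54.9, with D150L150 2 just under Control 1.

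All 19 genes of excitation-contraction coupling were lower and none was called, with a median of -1.43. Ryr1, the calcium release channel of the sarcoplasmic reticulum, read 28.4, 36 and 22.6 FPKM in Control and 5.22, 11.1 and 6.24 in D150L150, a difference of -1.85 ± 0.59 (limma adjusted p = 0.106). Cacng1, a subunit of the voltage sensor in the T tubule, came nearest to a call, at 124, 62.5 and 49.7 against 25.6, 28.6 and 25.4 and an adjusted p of 0.0555. Atp2a1, the calcium pump of fast fibres, stood at 331, 1131 and 494 against 86.1, 219 and 149.6, while Atp2a2, the pump that slow fibres share with most other cells, differed by -0.25 ± 0.22. Pvalb, the calcium buffer of fast fibres, had the largest difference of the list, -3.02 ± 1.65, and the widest spread, with 88.5, 701 and 147 in Control and 4.66, 79.2 and 37.3 in D150L150.

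At the muscle membrane 2 genes fell. Sgca encodes alpha-sarcoglycan of the dystrophin complex and lies at chr11:94962777-94976327 in GRCm38.p6. It had 29.2, 28.2 and 18.2 FPKM in Control and 5.65, 6.99 and 7.19 in D150L150, from 310 to 1644 fragments a library, and fell by 1.76 ± 0.42 (adjusted p = 0.0444, limma). Coro6, a coronin of the actin cortex, at chr11:77462321-77470484, had 39.8, 28.7 and 24.7 against 7.44, 11.1 and 6.46 and fell by 1.78 ± 0.41 (adjusted p = 0.0404). Within each group the 3 values of both genes were within 2-fold of each other, and the groups lay well apart. The other 14 genes of this list were not called, although 14 of all 16 did not overlap: Sgcb was at 28.4, 21 and 17.6 against 11.2, 12.5 and 13.3 and Dmd, dystrophin itself, at 2.92, 2.15 and 1.65 against 0.82, 0.94 and 1.15. Without Control 1 the differences of Sgca and Coro6 were -1.65 and -1.60.

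At the neuromuscular junction 3 of 16 tested genes fell and 13 were not called. Colq, the collagen tail that anchors acetylcholinesterase in the synaptic cleft, lies at chr14:31523082-31577863 and had 2.08, 1.85 and 1.4 FPKM in Control and 0.478, 0.362 and 0.348 in D150L150. Its level was low, 43 to 258 fragments a library, yet the groups were far apart for their spread, and it fell by 0.99 ± 0.16 with the smallest adjusted p of the muscle genes (0.014, limma). Musk, the receptor kinase that organises the postsynaptic membrane, at chr4:58285729-58377848, had 4.41, 2.41 and 2.0 against 1.17, 0.887 and 1.06 and fell by 0.90 ± 0.20 (adjusted p = 0.0351). Chrnb1, the beta subunit of the acetylcholine receptor, at chr11:69784036-69795966, had 27.8, 19.4 and 13.2 against 7.43, 6.14 and 7.78 and fell by 1.33 ± 0.30 (adjusted p = 0.0367). The delta subunit gene Chrnd, with 19.2, 13.3 and 9.74 against 6.39, 3.49 and 6.22, just missed the threshold (adjusted p = 0.06), and Ache and Dok7 had differences of -0.59 ± 0.20 and -0.57 ± 0.19 without being called. Chrna1 and the fetal subunit gene Chrng overlapped between groups: Chrng read 48.2, 30.01 and 20.3 in Control and 24, 5.34 and 12.7 in D150L150. Without Control 1 the 3 called genes differed by -0.91, -0.65 and -1.08, in the same order, and were not called.

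None of 19 genes of muscle energy metabolism was called, and 18 were lower, with a median of -1.79. Ckm, the creatine kinase of muscle, stood at 717, 1968 and 797 FPKM in Control and 126, 465 and 229 in D150L150, Mb, the oxygen store myoglobin, at 138, 626 and 270.2 against 12, 88.3 and 60.7, and Cox8b, a muscle subunit of cytochrome oxidase, at 119, 249.6 and 128 against 17.1, 53.3 and 24.8. The groups did not overlap in these genes, but Control 2 was 2 or more times the other Control libraries in Ckm and Mb, and their errors, 1.08 for Ckm and 1.09 for Mb, were wide. Control 2 also had the highest level of the fast sarcomere list, 8.95 on the mean log2 scale beside 7.63 and 7.75 in Control 1 and 3 and 5.68, 6.89 and 6.27 in D150L150.

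The list of myogenic factors and muscle regeneration also holds genes that are not regulators, such as Des and fetal myosins. All 15 of its genes tested were lower, with a median of -1.0, and none was called. Myod1, which commits cells to muscle, read 26.6, 22.5 and 19.5 FPKM in Control and 14.8, 8.56 and 9.22 in D150L150 (difference -1.04 ± 0.27, limma adjusted p = 0.0547), and Myog, which drives their differentiation, 121, 61.5 and 51 against 45.7, 24.1 and 26.9. Both had groups that did not overlap. The fetal myosins and the fusion protein gene Mymk overlapped: Myh3, the embryonic heavy chain, had 53.6, 84.5 and 19.4 against 67.2, 7.73 and 44.9, Myh8, the perinatal one, 27.7, 93.4 and 12.6 against 35.5, 2.97 and 43.7, and Mymk 74.3, 59 and 20.9 against 48.1, 7.45 and 28.6. D150L150 2 was the lowest of its group in these 3 genes and the highest in Myh4 and Pvalb, so the 3 D150L150 libraries did not share 1 pattern of adult and fetal genes. Without it, the differences of Myh3 and Myh8 changed sign, to 0.29 and 0.28. Lbx1, a homeobox gene of migrating limb muscle precursors that is on none of the lists, was among the 25 most lowered called genes, with 4.99, 4.03 and 2.94 against 0.938, 1.21 and 0.924 (difference -1.28 ± 0.30).

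**Figure D3:**
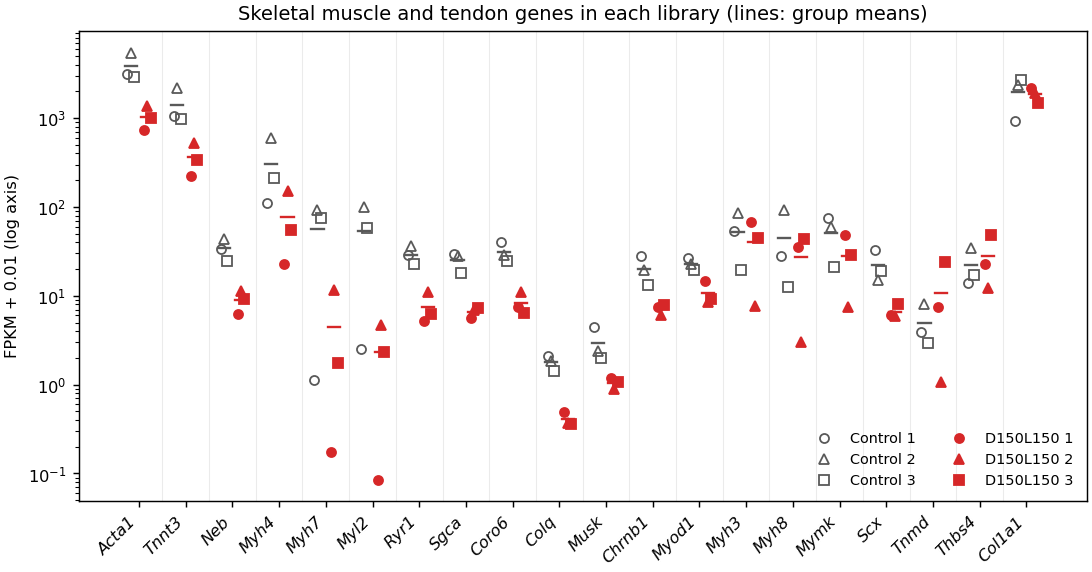
FPKM with 0.01 added, on a log axis, of 20 muscle and tendon genes in each of the 6 libraries. Open grey symbols are Control, filled red ones D150L150, shapes are replicates and lines are group means. The called genes Sgca, Coro6, Colq, Musk, Chrnb1 and Scx have groups that do not overlap. So do Acta1, Tnnt3, Neb and Ryr1, which were not called. In Myh7 and Myl2 the value of Control 1 lies with the D150L150 values, and in Myh3, Myh8 and Mymk D150L150 2 lies far below the other libraries.

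Promoters of these genes were searched on both strands for short motifs in the 250 bases before the RefSeq start (GRCm38.p6). The motifs were CANNTG, the E-box bound by myogenic factors, its form CAGCTG, which each CANNTG count also includes, TATAAA, the serum response CArG box and the MEF2 site. Of 129 muscle list genes tested, 87 had an entry, with 116 windows. CAGCTG was in 31.9% of these and in 13.0% of all 32851 windows, CANNTG in 80.2% and 66.2%, the MEF2 site in 11.2% and 2.92%, and the CArG box in 6.03% and 1.47%. Sequences are shown for Acta1, the most abundant muscle gene named here, with CAGCTG and the CArG box in capitals, and for the called genes Sgca and Chrnb1 with each CANNTG in capitals. Acta1 (chr8:123894776-123895025, minus strand) holds 1 CAGCTG and 1 CArG box, Sgca (chr11:94976328-94976577, minus strand) 1 E-box, and Chrnb1 (chr11:69795938-69796187, minus strand) 3. The Chrnb1 window reaches into the gene span given above, and the last of its E-boxes lies inside that span.
Acta1: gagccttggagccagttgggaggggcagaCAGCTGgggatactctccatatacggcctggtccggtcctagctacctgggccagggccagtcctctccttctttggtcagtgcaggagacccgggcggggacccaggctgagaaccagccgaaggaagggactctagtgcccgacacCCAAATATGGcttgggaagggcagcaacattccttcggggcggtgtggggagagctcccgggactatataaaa
Sgca: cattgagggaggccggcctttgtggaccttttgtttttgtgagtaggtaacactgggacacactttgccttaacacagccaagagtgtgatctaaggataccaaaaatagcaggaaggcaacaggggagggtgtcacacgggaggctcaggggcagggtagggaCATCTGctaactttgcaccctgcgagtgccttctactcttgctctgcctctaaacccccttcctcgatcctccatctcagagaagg
Chrnb1: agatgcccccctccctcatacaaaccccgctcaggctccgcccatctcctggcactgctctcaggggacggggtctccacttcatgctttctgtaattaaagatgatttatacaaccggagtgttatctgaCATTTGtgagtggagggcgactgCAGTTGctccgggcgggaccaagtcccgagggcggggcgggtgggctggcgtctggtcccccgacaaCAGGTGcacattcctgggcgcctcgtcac
A match is only a match of letters. The lists were made of known muscle genes, so these shares describe muscle promoters and not the difference between the flaps: for the 52 genes called lower, of which 34 had an entry, CAGCTG was in 20.9% of 43 windows.

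Of 27 tendon genes tested, 1 fell and 26 were not called. This is 3.7% called, beside 2.42% called of all genes tested, 0.398% being called lower. In all 18 had positive and 9 negative differences, and the median was 0.05 (-0.10 without Control 1). The gene that fell was Scx, scleraxis, a transcription factor of tendon progenitors that also marks other connective tissue cells, at chr15:76457411-76459468. It read 32.3, 15 and 18.9 FPKM in Control and 6.02, 5.92 and 7.97 in D150L150, from 301 to 1627 fragments a library. Each D150L150 value was below each Control value, and Scx fell by 1.54 ± 0.38 (adjusted p = 0.0483, limma). Without Control 1, in which Scx was highest, the difference was -1.23 and was not called.

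Genes of mature tendon varied widely inside the groups. Tnmd, tenomodulin of differentiated tenocytes, had 3.86, 8.08 and 2.92 FPKM in Control and 7.51, 1.06 and 23.9 in D150L150, with the lowest and the highest of the 6 values both in D150L150. Thbs4, a matrix protein of tendon and muscle attachment, had 14, 34.7 and 17 against 23, 12.2 and 47.8, and Fmod, a collagen-binding proteoglycan, differed by 0.20 ± 1.07. D150L150 3 was the highest of its group in Tnmd and Thbs4, and D150L150 2 the lowest. The fibrillar collagen gene Col1a1, at 919.7, 2347 and 2693 against 2152, 1902 and 1485, differed by 0.02 ± 0.41, and Dcn, decorin, by 0.21 ± 0.24. Prg4, the lubricant of gliding surfaces, was at 93, 18.8 and 58.5 against 22.5, 27.5 and 15.5 and overlapped. Egr1, an early response factor that acts in tendon and in many other cells, did not overlap, with 36.9, 16.4 and 21.5 in Control and 103, 67.7 and 66.7 in D150L150, and missed the threshold (difference 1.68 ± 0.47, adjusted p = 0.0731 in limma). Fibin and Wif1 were lower without overlap and Thbs2 was higher without overlap. With Scx and Egr1 this makes 3 of 27 genes apart in the lower direction (11.1%) and 2 in the higher (7.41%), beside 12.1% and 14.3% of all genes tested.

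The mitochondrially encoded genes were the largest block of genes that fell. All 13 were lower with groups that did not overlap, beside 12.1% of all genes tested. Of them 11 were called (84.6%, beside 0.398% called lower of all genes tested), and the median was -1.48. COX1, a subunit of cytochrome oxidase, read 17608, 17139 and 11735 FPKM in Control and 5614, 6169.8 and 7782 in D150L150, and ND1, of complex I, 14185, 8742 and 6053 against 2728, 3243 and 3303. Control 1 was the highest library in both, and all D150L150 values lay below all Control values. ND1 fell by 1.56 ± 0.32 (adjusted p = 0.0297, limma), COX1 by 1.24 ± 0.26 and ND2, also of complex I, by 1.85 ± 0.39. The other called genes were ND4, ND4L and ND5 of complex I, CYTB of complex III, COX2 and COX3 of complex IV, and ATP6 and ATP8 of the ATP synthase, with differences from -1.89 (ND4L) to -1.34 (CYTB). The genes not called were ND3, at 235, 70.8 and 43.5 against 19.9, 29.3 and 22.4, and ND6, which is encoded on the other strand, at 2.88, 2.21 and 3.61 against 1.48, 0.88 and 1.23. ATP8 and ATP6 overlap in the mitochondrial genome, and fragments of the overlap cannot be assigned. Together the 13 genes took 7.43%, 6.23% and 4.19% of all fragments in Control 1, 2 and 3 and 1.93%, 2.12% and 2.59% in D150L150, so the other genes had a larger share of the total in D150L150. Rescaled without them, limma called 248 genes, 205 higher and 43 lower. The 22 nuclear genes of oxidative phosphorylation had a median of -0.32, and none was called. Without Control 1 the median of the mitochondrial genes was -1.24, and with the same muscle covariate it was -1.19.

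Of the 25 called genes with the most negative differences, those on no list were Lbx1 and the following. Serpine2, an inhibitor of serine proteases such as thrombin, had 76.9, 38.2 and 32.5 FPKM in Control and 14.5, 17.9 and 15.5 in D150L150 (difference -1.46 ± 0.31, limma adjusted p = 0.0322). Fxyd6, a regulator of the sodium pump, had 53.5, 23.8 and 23.3 against 9.28, 9.28 and 12.3. Wfs1, a protein of the endoplasmic reticulum membrane, had 24.1, 21.8 and 15.6 against 9.85, 9.86 and 8.5, Gprc5c, an orphan receptor, 19.99, 13.5 and 12.9 against 5.77, 6.74 and 6.47, Adcy2, an adenylyl cyclase, 5.78, 4.16 and 4.27 against 1.63, 1.48 and 2.6, and Hoxd8, a homeobox gene, 27.1, 16.2 and 16 against 9.56, 11.2 and 8.31. Atp6v0e2, a subunit of the vacuolar proton pump, had 6.17, 7.49 and 5.88 against 1.32, 3.05 and 2.44 (difference -1.23 ± 0.30), and Plaat1, a phospholipase and acyltransferase, 1.67, 2.04 and 1.28 against 0.172, 0.279 and 0.252 (difference -1.10 ± 0.26). In Serpine2, Fxyd6, Gprc5c and Hoxd8 Control 1 was well above the other Control libraries, which were still above all D150L150 libraries.

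No member of the blood endothelial or pericyte lists was called. All 16 blood endothelial genes had negative differences (median -0.83), and without Control 1 the median was -0.39. In 3 of 16 (18.8%) the groups did not overlap, beside 12.1% of all genes tested that were lower without overlap. Pecam1, an adhesion molecule of endothelium, read 151, 47 and 79.1 FPKM in Control and 61.3, 68.9 and 29.3 in D150L150, and Tie1, an endothelial receptor, 75.4, 17.2 and 28.8 against 19, 18.9 and 9.59. In both, Control 1 was the highest of the 6 libraries by a wide margin. Tek, the angiopoietin receptor, did not overlap, with 12, 7.97 and 9.57 against 5.01, 6.62 and 4.03 (difference -0.81 ± 0.21, adjusted p = 0.0555 in limma). The 12 pericyte and smooth muscle genes were also all negative (median -0.50), and 4 of them (33.3%) were lower without overlap. Rgs5, a pericyte marker, was at 76.3, 78 and 69.9 against 28.7, 34.1 and 28. The pericyte list shares Des with the skeletal muscle lists, and Des, at -1.769, had its most negative difference. Called genes on no list, chosen after their values were seen, included Gucy1b1, a subunit of the nitric oxide receptor of vascular smooth muscle, Cdh13, a cadherin of endothelium and other cells, Rgs4, a regulator of G protein signalling, and Foxs1, a forkhead factor. They differed by -0.83 ± 0.19, -0.75 ± 0.13, -0.73 ± 0.18 and -0.69 ± 0.17, in that order (limma adjusted p = 0.0362, 0.0177, 0.0483 and 0.0456). Igfbp5, a binding protein of insulin-like growth factors made by muscle and fibroblasts, was at 172, 160.3 and 111 against 58.2, 58 and 71 and was not called.

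Epidermal kallikreins and protease inhibitors held 2 of the genes with the largest rise, Klk10 and Klk6. Of 17 tested genes of this list 11 rose and 6 were not called, with a median of 2.14. The 11 are 64.7%, beside 2.03% called higher of all genes tested. Klk6, a trypsin-like protease of the upper epidermis, at chr7:43824438-43832027, had 10.8, 55 and 46.4 FPKM in Control and 470.2, 367 and 577 in D150L150. Every D150L150 value was more than 6 times the highest Control value, the means differed 12.6-fold, and Klk6 rose by 3.88 ± 0.50 (adjusted p = 0.00847, limma). Klk10 had the largest difference of all called genes, 4.06 ± 0.64, with 5.78, 12 and 12.1 against 142, 94 and 392, where D150L150 3 was the highest. Klk7, a chymotrypsin-like protease that cuts corneodesmosin, had 23.6, 86 and 82.9 against 398, 348 and 657 (adjusted p = 0.0146), and Klk5, which activates other kallikreins, 3.07, 14 and 11.8 against 65.1, 33 and 70.4. Klk8, Klk9, Klk11 and Klk13 rose by 1.87, 2.22, 1.96 and 2.36. Among the inhibitors, Spink5, which holds kallikreins in check, had 5.34, 12.4 and 16.8 against 99.8, 54 and 156 and rose by 3.06, and Serpinb5 and Wfdc5 rose by 1.74 and 2.14. Cst6, a cystatin of the granular layer, was at 8.75, 121 and 88.7 against 249, 226 and 1571 and missed the threshold (adjusted p = 0.0722), with D150L150 3 more than 6 times the others of its group. Control 1 was the lowest library in Klk6, Klk7, Klk10 and Spink5, and without it their differences were 3.17, 2.40, 3.74 and 2.63.

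Genes of wound-activated keratinocytes rose in 11 of 16 (68.8%, beside 2.03% called higher of all genes tested). The median of the 16 was 2.17, and 2.03 without Control 1. Krt6a, a stress keratin, at chr15:101689928-101694305, had 241, 301 and 413 FPKM in Control and 1796, 1744 and 1805 in D150L150, a rise of 2.52 ± 0.33 with an adjusted p of 0.00847 in limma. The 3 D150L150 values were nearly equal and at least 4 times the highest Control value. Krt6b rose from 142, 132 and 348 to 1513, 1278 and 893, but it is close to Krt6a in sequence, and the split of fragments between them is uncertain. Their partners Krt16 and Krt17 rose by 2.10 ± 0.37 and 2.46 ± 0.40, with Krt17 at 155, 355 and 319 against 1088, 1194 and 2261. Gjb2, the gap junction protein connexin 26, had 37.1, 33.7 and 56.6 against 353, 272 and 256 (adjusted p = 0.0106), and Gjb6, connexin 30, rose by 1.88. Sprr1a, Sprr1b and Sprr2d, small proline-rich precursors of the cornified envelope, rose by 3.05, 2.35 and 2.88, Lce3f, a late envelope protein, by 2.25, and Stfa1, a cystatin with close copies, by 2.04. Of the members that were not called, S100a8, an alarmin made by neutrophils as well as keratinocytes, overlapped, with 2109, 504 and 1182 against 2213, 1497 and 643, and Il1rn, the interleukin 1 receptor antagonist, was highest in Control 1, at 163, 27.2 and 59.2 against 78.8, 49.8 and 21.6. The 16 genes took 0.508%, 0.294% and 0.515% of fragments in Control and 1.75%, 1.52% and 1.48% in D150L150.

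The cornifying and basal layers had fewer calls. Of 18 suprabasal and cornified envelope genes all were higher, with a median of 2.22 (1.60 without Control 1). Of these 5 rose (27.8%, beside 2.03% called higher of all genes tested). Cdsn, corneodesmosin, the glue of shed cells, had 11.4, 38.7 and 39.9 FPKM in Control and 245, 122 and 317 in D150L150 and rose by 2.97 ± 0.64 (adjusted p = 0.0329, limma). Dmkn rose from 41.3, 159 and 189.6 to 859, 541 and 900.1 and Dsc1, a desmosomal cadherin of the upper layers, from 3.94, 7.96 and 12.1 to 73.1, 34.4 and 54.7. The transglutaminases Tgm1 and Tgm3, which crosslink the envelope, rose by 2.01 and 2.13. The keratins of the spinous layer had differences of 2.85 ± 1.03 (Krt1) and 2.80 ± 1.17 (Krt10) and were not called. Krt1 read 19.99, 269 and 263 against 1165, 513 and 932, and Krt10 4.0, 49.6 and 56.4 against 255, 69.3 and 271. In both, Control 1 was far below Control 2 and 3, and D150L150 2 was the lowest of its group. Of 10 basal keratinocyte genes all were higher and 2 rose, with a median of 1.40 (1.03 without Control 1). Krt14, the keratin of the basal layer, had 788, 1711 and 1692 against 4230.0, 4005 and 3996 and rose by 1.63 ± 0.32 (adjusted p = 0.025). Lama3, a chain of the basement membrane protein laminin, had 5.3, 4.06 and 3.78 against 17, 14.7 and 14.7 and rose by 1.62 ± 0.38. Krt5, the partner of Krt14, differed by 1.20 ± 0.41, and Trp63, the master factor of stratified epithelium, by 1.42 ± 0.35 (adjusted p = 0.0503), without being called. Krt15, a keratin of resting basal and hair follicle cells, overlapped, with 5.38, 386 and 281 against 203, 83.5 and 618.

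**Figure D4:**
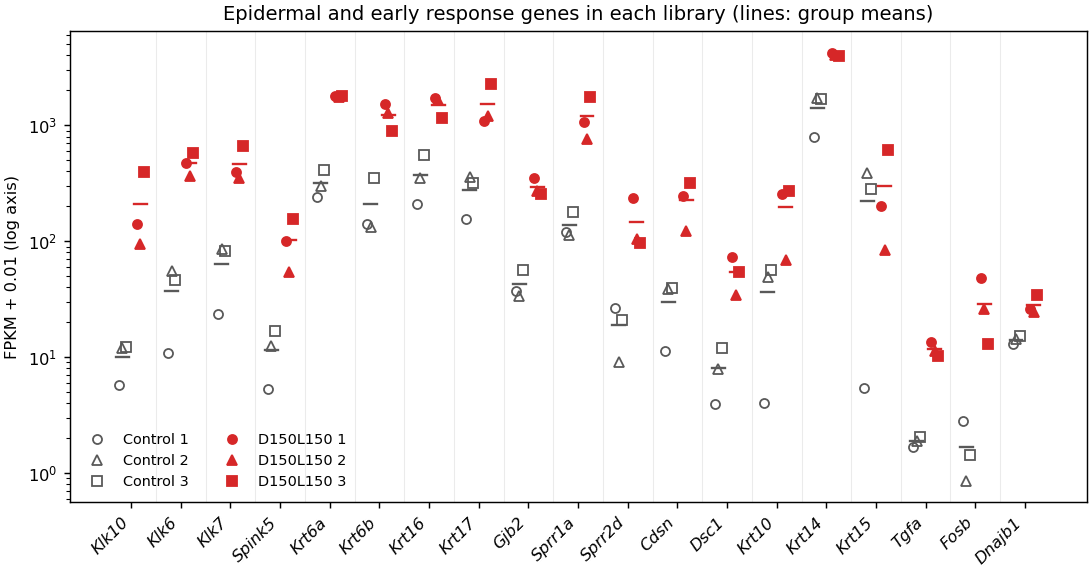
FPKM with 0.01 added, on a log axis, of epidermal and early response genes in each of the 6 libraries. Open grey symbols are Control, filled red ones D150L150, shapes are replicates and lines are group means. The D150L150 values lie above all Control values except in Krt15, and Control 1 is far below the other Control libraries in Krt10 and Krt15 but not in Krt6b, Gjb2 or Tgfa.

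Of 27 genes called higher on the lists of kallikreins, activated and cornifying keratinocytes, 20 had a RefSeq promoter entry, with 26 windows of 250 bases. TGANTCA, the site of AP-1, the factor family of Fos and Jun, was in 26.9% of them, which is 7 windows. It was in 13.5% of the 229 windows of all genes called higher, and in 6.75% of all 32851 windows. Sprr1a (chr3:92485882-92486131, minus strand) holds 2 and Sprr2d (chr3:92338890-92339139, plus strand) 1. Both are shown as envelope genes that rose, with TGANTCA in capitals. Here too a match is only a match of letters. The 27 genes were called in these data and are on lists chosen with earlier results known, and a role of AP-1 was not tested.
Sprr1a: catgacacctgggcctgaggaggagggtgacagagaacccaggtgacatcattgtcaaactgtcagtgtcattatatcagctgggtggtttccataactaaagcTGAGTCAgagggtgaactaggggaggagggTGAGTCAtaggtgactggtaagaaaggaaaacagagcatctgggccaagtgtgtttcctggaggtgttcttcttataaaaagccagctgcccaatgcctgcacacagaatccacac
Sprr2d: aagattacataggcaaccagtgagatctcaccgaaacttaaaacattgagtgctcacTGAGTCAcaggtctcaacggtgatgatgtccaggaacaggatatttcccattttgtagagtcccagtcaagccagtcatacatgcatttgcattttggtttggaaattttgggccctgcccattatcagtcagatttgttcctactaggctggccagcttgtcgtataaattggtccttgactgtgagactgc

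Among the 25 called genes with the largest rise, with predicted genes such as Gm46220 left out, those on no list were the following. Lypd5, of the Ly6 and uPAR domain family, had 2.08, 8.06 and 13.1 FPKM in Control and 96.3, 56.5 and 74 in D150L150, a rise of 3.35 ± 0.73 (adjusted p = 0.0348, limma). Sprr2a1, Sprr2a2 and Sprr2a3, near-identical copies whose fragments may be shared, rose by 2.87, 3.19 and 2.58. Gsdma and Gsdmc, gasdermins of skin and other epithelia, rose by 2.56 and 2.67. Cldn4, a tight junction protein, had 8.16, 7.21 and 7.95 against 39.9, 38.9 and 75.8, and Plet1, a membrane protein of epithelial progenitors, 8.02, 9.43 and 6.96 against 39.5, 48.3 and 90.4. Gsta4, which detoxifies products of lipid peroxidation, rose by 2.68 ± 0.62, Cyp2b10, a cytochrome P450, by 2.63 ± 0.52, and Serpinb6c by 2.52 ± 0.34. In Plet1 and Cldn4 the 3 Control values were alike and D150L150 3 was highest, and in Gsta4 D150L150 3 was lowest of its group.

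On each of the immediate early (16 genes tested), heat shock (14) and epidermal growth factor (10) lists 1 gene rose. Of all genes tested 2.03% were called higher. Whether 1 call in so short a list exceeds that share was not tested. Fosb, a subunit of AP-1, had 2.78, 0.847 and 1.41 FPKM in Control and 47.7, 25.8 and 13 in D150L150 and rose by 3.36 ± 0.64 (adjusted p = 0.022, limma). It was the 1 gene of 16 on the immediate early list that was called. Arc, an early response gene, and Klf4, a factor of epidermal differentiation, are on no list and were chosen after their values were seen. They rose by 1.63 ± 0.29 and 1.62 ± 0.37 (adjusted p = 0.0195 and 0.0383). Fos, with 76.1, 17.4 and 60.7 against 386, 207 and 133, did not overlap and missed the threshold (adjusted p = 0.0778). Dnajb1, a cochaperone of the heat shock response, had 12.9, 14.3 and 15.2 against 26.2, 24.4 and 34.6 and rose by 0.95 ± 0.19 (adjusted p = 0.029), as 1 of 14 on its list. Tgfa, a ligand of the epidermal growth factor receptor, was at 1.67, 1.87 and 2.05 in Control and 13.6, 11.3 and 10.1 in D150L150, tight in both groups, and rose by 2.14 ± 0.40 (adjusted p = 0.0213), as 1 of 10. The other ligands Hbegf and Areg were higher without overlap and were not called, at 9.81, 5.49 and 5.7 against 29, 42.9 and 21 and 7.61, 4.67 and 2.39 against 21, 43.7 and 12.4. Of 14 genes of the interleukin 1 and 36 family none was called, and Il33, an alarmin of keratinocytes and stroma, had 25, 26.4 and 55.5 against 161, 129 and 81.8.

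Of the 38 lists, 27 had no called member. Beside lists already described, these included the following, each with its median difference and that without Control 1. Fibroblast genes (20) had 0.03 and -0.32, macrophage genes (15) 0.25 and -0.07, and T and natural killer cell genes (8) 0.45 and -0.01, so that these 3 medians changed sign. Neutrophil genes (8) had 0.23 and 0.73, mast cell genes (7) 1.66 and 1.16, and genes of Langerhans cells and MHC class II (8) -0.28 and -0.67. Adipocyte genes (12) had -0.15 and -0.69, sebaceous gland genes (12) 0.63 and 0.02, and Schwann cell genes (8) -0.01 and -0.12. Glycolysis genes (19) had 0.21 and 0.18 and cell cycle genes (12) 0.04 and 0.14. A missed threshold does not show that these levels were alike. Red cell genes had a median of 1.24 over 5 genes (1.84 without Control 1), with levels of 6.25, 3.92 and 4.53 in Control and 6.70, 7.09 and 4.73 in D150L150, which overlapped.

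D150L150 was then set against the mean of the other 4 spacer groups (D15L100, D15L150, D15L200 and D100L150, 3 libraries each), with no Control library in the contrast. Limma called 0 of 13078 genes (0.0%), with 449 at an unadjusted p under 0.05, which is 3.43% of those tested, and a smallest adjusted p of 0.9997. The 8 muscle lists had a median of -0.87 in this contrast, the mitochondrial list -0.42, the wound-activated list 0.44 and the tendon list -0.23. For the basal keratinocyte list it was 0.533, for the kallikrein list 0.305 and for the suprabasal and cornified envelope list -0.068. The level of the suprabasal list averaged 6.362 in D150L150 on the mean log2 scale, beside a median of 6.61 over the 12 other spacer libraries. Sgca, which fell against Control, spanned 6.09 to 28.7 FPKM over the 12 other spacer libraries with a median of 14.5, Colq 0.434 to 1.75 with 0.652 and Scx 3.35 to 22.2 with 12.3. Of the genes that rose, Klk6 spanned 58.3 to 450.3 with a median of 173, and Krt6a 432 to 2592 with 1186. Plet1 (1.49 ± 0.38), Fosb (1.59 ± 0.50), Klk6 (1.32 ± 0.39) and Krt17 (1.10 ± 0.32) had positive differences from the other spacers, and none was called. Levels of the muscle lists varied widely inside those groups, from 3.21 to 5.74 over the 12 libraries on the mean log2 scale, and the 3 D150L150 libraries, at 3.50, 4.01 and 3.76, lay inside that range.

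**Figure D5:**
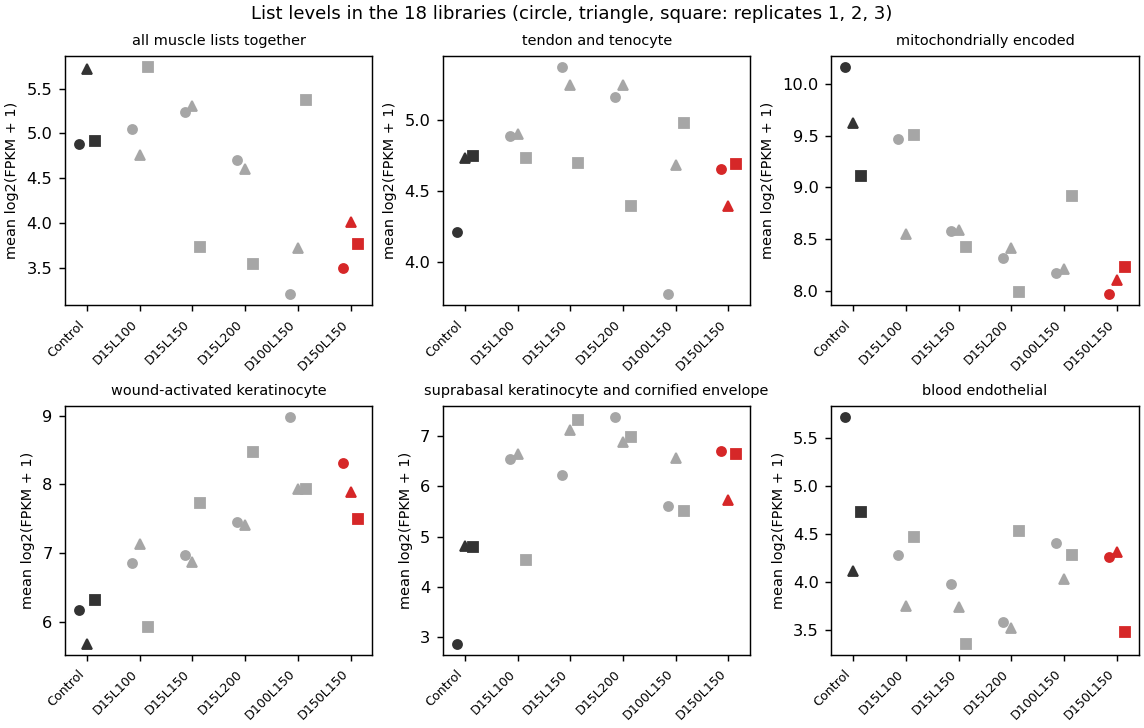
Mean log2(FPKM + 1) of the members of 6 gene lists in each of the 18 libraries, by group, with D150L150 in red, Control in black and the other spacers in grey. For muscle the 3 D150L150 libraries lie below the Control libraries and inside the range of the other spacers. For tendon they overlap Control, and in the suprabasal and blood endothelial panels Control 1 lies apart from Control 2 and 3.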

How the data were processed

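The deposited table gives FPKM per gene for 18 skin libraries, made by the authors. TRIzol was used for total RNA and a VAHTS Universal V6 kit for the libraries, per the labels' protocols. Tools listed in the submitters' processing notes, without roles, are HISAT2, fastp, DESeq2, HTSeq and R 3.2.0, and the build is mm10. For annotation and strand setting, nothing is given in the sources used here. Groups were taken from the labels, with 3 libraries each.

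Values were tested as log2(FPKM + 1) with limma 3.58.1 in R 4.3.3 (1 mean per group over all 18 libraries, mean-variance trend, robust empirical Bayes, Benjamini-Hochberg adjustment). Genes with fewer than 3 libraries at an FPKM of 1 or more were not tested, so 14665 of 27743 were left out. FPKM steps gave whole fragments for all 27743 genes, from which the depths come. They are counting totals and set the precision of low genes. The fit was tested on simulated data. Promoters and coordinates are RefSeq's for GRCm38.p6, the assembly that mm10 names.

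The members and lists were chosen with earlier results of these data known. Named were up to 25 called genes with the largest difference in each direction, with predicted genes left out of that ranking. All called list members, the 6 members with the smallest p per list, and any muscle or tendon member were also open to naming. Other list members, such as Krt15, S100a8, Il1rn, Pecam1 and Tie1, were chosen after their values were seen. Alternatives were other pseudocounts, filters and scalings, a replicate block, each library left out, voom on recovered fragments and a muscle covariate.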

Additional observations from a re-analysis of the deposited data

How the results depend on the processing

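Against 317 genes called (265 higher, 52 lower), 82 (72 and 10) were called with no filter on low values, where 27743 genes were tested, 47 (44 and 3) with only the 6 libraries in the fit, 183 (157 and 26) by voom on recovered fragments and 0 (0 and 0) with the muscle level as a covariate, where 1421 genes had an unadjusted p under 0.05 in limma. With each library left out in turn, limma called 0 to 274 genes (0 to 213 higher, 0 to 61 lower). Other pseudocounts, filters and scalings called 248 to 323. The share of calls that were higher was 83.6%, and it was 97.1% with the replicate block, 93.6% with only 6 libraries and 96.6% and 96.7% without D150L150 2 and 3, and both calls without Control 1 were higher. Deviations of Control and D150L150 libraries of the same replicate number correlated at 0.33, -0.35 and 0.02 for 1, 2 and 3. Control 1 alone correlated best with its own number. Deviations were taken from the mean of 3 libraries, so these correlations are tied to each other and cannot decide whether numbers pair the libraries. With the replicate block 105 genes were called (102 and 3). Against the other 4 spacer groups 3 genes were called with no filter and 0 otherwise. With the muscle covariate the median was 0.46 for tendon and -0.23 for muscle, and signs turned in Myh4 (1.15), Myh7 (1.39), Myl2 (0.46), Myl3 (0.51), Tcap (0.009), Atp2a1 (0.33), Atp2a2 (0.057), Pvalb (0.59), Ckm (0.35) and S100a8 (-0.67). Rescaled without mitochondrial genes, Col1a1 was -0.035. With each library left out in turn, differences that changed sign ranged from -0.11 to 0.62 in Tpm3, -1.19 to 0.29 in Myh3, -1.48 to 0.28 in Myh8, -0.41 to 1.39 in Tnmd, -0.26 to 0.69 in Thbs4, -0.21 to 0.55 in Fmod, -0.46 to 0.31 in Col1a1, -0.58 to 2.38 in Krt15, -0.29 to 0.75 in S100a8 and -1.14 to 0.13 in Il1rn. The sign of Tpm3, Krt15 and Il1rn turned without Control 1, of Myh3 and Myh8 without D150L150 2, of Tnmd without D150L150 3, of Thbs4 and Fmod without either Control 1 or D150L150 3, of S100a8 without Control 2 or D150L150 1, and of Col1a1 without Control 1, D150L150 1 or D150L150 2. None of these genes was called, and the cause was not tested.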
